A study of Bos grunniens and Bos taurus with 11 samples.

Results

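Lung mRNA of 2 Zaosheng cattle was compared with that of 9 yaks taken as 1 group, which together make up all 11 libraries of the mRNA series. The cattle group (CON) held indigenous adult males kept at 1500 m in Ningxian, Gansu. The yaks were indigenous adult males from 3400 m at Maqu (T1, 3 animals), from 4200 m (T2, 3 animals, 1 each from Linzhou, Bange and Dangxiong) and from 5000 m at Anduo (T3, 3 animals). Each library came from 1 animal, no animal received a treatment, and Zaosheng cattle served as the lowland control for hypoxic adaptation. Species, altitude and place changed together between the groups, so their parts in any difference cannot be told apart. Reads of both species were mapped to a yak assembly. Whether this lowered the cattle counts of single genes was not tested, which bears on every gene low or without a read in cattle. Lung is bulk tissue, in which fewer cells of a type and less RNA per cell cannot be told apart either.

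The comparison covered 13636 of the 17267 genes listed, those whose FPKM (fragments counted on a gene, scaled to its length and to the depth of the library) reached 1 in 2 or more of the 11 libraries. They comprised 6966 of the 8451 genes with a numeric identifier and 6670 of the 8816 genes with the prefix NewGene, called new genes here. The numeric identifiers come without a name or a GO term in the files. Names and terms were given only to new genes, 390 of which carried 1 of 204 names and 1347 of which carried a GO term. None of the 91 cell type markers looked for was listed by name, so the labelled tissue could not be checked against its markers. The extraction text of the labels speaks of retinas, while their tissue fields give lung.

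New genes are transcripts that a program assembles from reads outside the annotated genes of a genome. In mammals such transcripts often come from repeats. LINE elements and endogenous retroviruses both encode a reverse transcriptase, which copies RNA into DNA, and the retroviruses also encode an integrase, which inserts that DNA into a chromosome. The LINE enzyme can also copy the mRNA of other genes back into the genome, which leaves short intronless copies of abundantly transcribed genes, such as those for ribosomal proteins. Many zinc finger proteins with a KRAB domain silence such repeats. The set of repeats and of copied genes differs between related species.

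Reads counted on genes ranged from 37775457 to 38912475 in cattle and from 28138973 to 54515645 in yaks. New genes held 15.1% and 19.2% of these reads in the cattle and from 11.7% to 30.9% in the yaks, with the highest share in T2 replicate 1. Genes without a read numbered 1919 and 1999 in the cattle and from 1821 to 3747 in the yaks, where T3 replicates 1 and 2 had the most. In these 2 libraries the 10 largest genes held 39.7% and 40.7% of the reads, against 17.5% to 30.8% in the others. The study lists its lowest shares of uniquely mapped reads for 2 of the libraries from Anduo. New genes with a read were 85.7% and 86.8% of those listed in the cattle and from 69.2% to 86.4% in the yaks, so that CON replicate 2 had the highest share of all libraries. Over 5 such values per library, the smallest exact two-sided permutation p was 0.255, where 55 arrangements allow 0.0182, and the Benjamini-Hochberg adjusted p was 1 for each. On the first principal component of log2(FPKM + 1), which held 24.8% of the variance, cattle lay at -24.6 and -19.3 within the yak range of -50.5 to 68.5. The second component, with 19.5% of the variance, placed the cattle at 49.4 and 56.1 and the yaks between -34.5 and 16.0, so that the species did not overlap there.

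**Figure D1:**
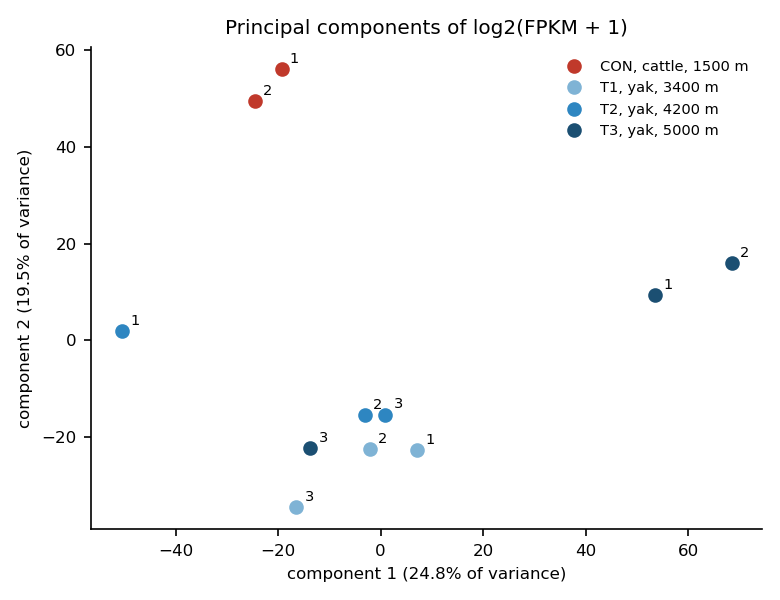
Principal components of log2(FPKM + 1) over the 13636 genes tested, with 1 point per library, coloured by group and numbered by replicate. The first component (24.8% of the variance) spreads the yaks from T2 replicate 1 to T3 replicates 1 and 2, and on the second (19.5%) both cattle lie above 49 and all 9 yaks below 17.

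Between cattle and yaks, 435 genes changed, of which 177 were higher and 258 lower in yaks. A gene was called where the fold change was at least 2 on the log2(FPKM + 1) scale and the Benjamini-Hochberg adjusted p of limma was under 0.05. The share called was 3.19% of the genes tested, 1.3% higher and 1.89% lower. In 429 of the 435 genes the values of the 9 yaks did not overlap with those of the 2 cattle, and over all genes tested 1568 (11.5%) showed no overlap. Adding 1 before taking logs shrinks the change of weakly expressed genes, yet 75 genes were higher and 72 lower by a log2 fold change of at least 2, and 23 and 18 by at least 3. The median log2 fold change over all genes tested was 0.02. Both cattle were needed for most calls, since 44 genes were called without CON replicate 1 and 39 without CON replicate 2, when a single animal stood for the species and its spread was taken to be that of the yaks.

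The genes with a numeric identifier, which are long and well expressed, comprised similar numbers in each direction, a balance that turned both ways with the settings. Of the 6966 tested, 74 (1.06%) were higher and 70 (1%) lower in yaks, 2.07% in all. A pseudocount of 0.1 gave 88 higher and 49 lower, and limma's voom on the reads recovered from the FPKM gave 40 higher and 80 lower. Their median length was 2190.5 bases over those tested, 1590.5 bases over those higher and 1338 bases over those lower. Genes higher in yaks had a median FPKM of 3.29 in cattle and 16.7 in yaks, and genes lower in yaks had 18.0 in cattle and 2.60 in yaks. Together the 74 higher genes held 0.116% and 0.172% of the reads of the cattle against 0.691% to 1.23% of those of the yaks. The 70 lower genes held 0.572% and 0.579% in cattle against 0.119% to 0.194% in yaks. These shares sum genes chosen by this comparison and describe its size only.

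Because the files pair no name with these identifiers, only the extremes in each direction are given, as those with the largest changes among genes without overlap. Gene 102277106 had an FPKM of 1.51 and 3.08 in the cattle, while the yaks ranged from 127.6 to 726.1 with a median of 395.9. The lowest yak, T3 replicate 1, still lay far above both cattle. The log2 fold change was 6.91 (standard error 0.47, limma with Benjamini-Hochberg, adjusted p = 6.07e-07), and mean FPKM rose from 2.29 ± 1.11 (SD, n = 2) to 421.0 ± 175.7 (SD, n = 9).

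Gene 102272269 had 0.207 and 0.459 in the cattle and 4.17 to 47.2 in the yaks, with a median of 36.6. Here T2 replicate 1 was the low yak, at 258 reads where the other yaks had 1043 to 3355. Its log2 fold change was 4.40 (standard error 0.61, limma with Benjamini-Hochberg, adjusted p = 0.000596). In the other direction, gene 102285405 had an FPKM of 63.0 and 65.8 in the cattle and 0.964 to 15.0 in the yaks, with a median of 2.29. It fell by 4.06 on the log2 scale (standard error 0.54, limma with Benjamini-Hochberg, adjusted p = 0.000438), and T2 replicate 1 was the high yak. Gene 102278158 was abundant in the cattle, with an FPKM of 438.2 and 411.3, against 10.8 to 112.0 in the yaks, where T1 replicate 2 was highest. It fell by 3.88 (standard error 0.65, limma with Benjamini-Hochberg, adjusted p = 0.00311), an 11.4-fold lower mean FPKM. The first 3 of these genes were also called without either cattle library, and 102278158 was not.

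The share called among new genes rested largely on genes under an FPKM of 1 in all libraries of 1 species. Of the 6670 tested, 291 (4.36%) were called, 103 (1.54%) higher and 188 (2.82%) lower in yaks. They made up 66.9% of the genes called and 48.9% of those tested. New genes lower in yaks had a median length of 353.5 bases, those higher had 548 bases, and those tested had 451 bases. The median FPKM of the lower genes was 3.48 in cattle and 0.413 in yaks, and that of the higher genes was 0.236 in cattle and 5.10 in yaks. The 103 higher genes held 0.0102% and 0.0116% of the reads in the cattle and 0.0612% to 0.106% in the yaks. The 188 lower genes held 0.0927% and 0.0917% in the cattle and 0.0078% to 0.0145% in the yaks. Here too the shares sum genes chosen by this comparison and describe its size only.

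The filter on low values treated the species unequally. A gene silent in yaks had to reach an FPKM of 1 in both cattle, whereas a gene silent in cattle needed this in any 2 of 9 yaks. Among new genes tested, 110 stayed under an FPKM of 1 in all 9 yaks and 88 of these were called lower, while 1326 stayed under 1 in both cattle and 80 of these were called higher. Such genes had to differ to be tested at all, so the filter in part set their p-values. Of the genes given below, this applies to NewGene.16543, NewGene.9178, NewGene.6164, NewGene.5392 and NewGene.16403, lower in yaks. It also applies to NewGene.4768, NewGene.2393, NewGene.4770, NewGene.11892 and NewGene.19513, higher in yaks, and to gene 102272269 above. Among genes that reached an FPKM of 1 in some library of each species, 123 of 5234 new genes were called (2.35%), 23 higher and 100 lower, and 114 of 6637 genes with a numeric identifier (1.72%), 55 higher and 59 lower. This condition is unequal as well, since it is met more easily in 9 yaks than in 2 cattle, so it keeps more genes lower in yaks, and neither balance is free of the choice of genes.

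**Figure D2:**
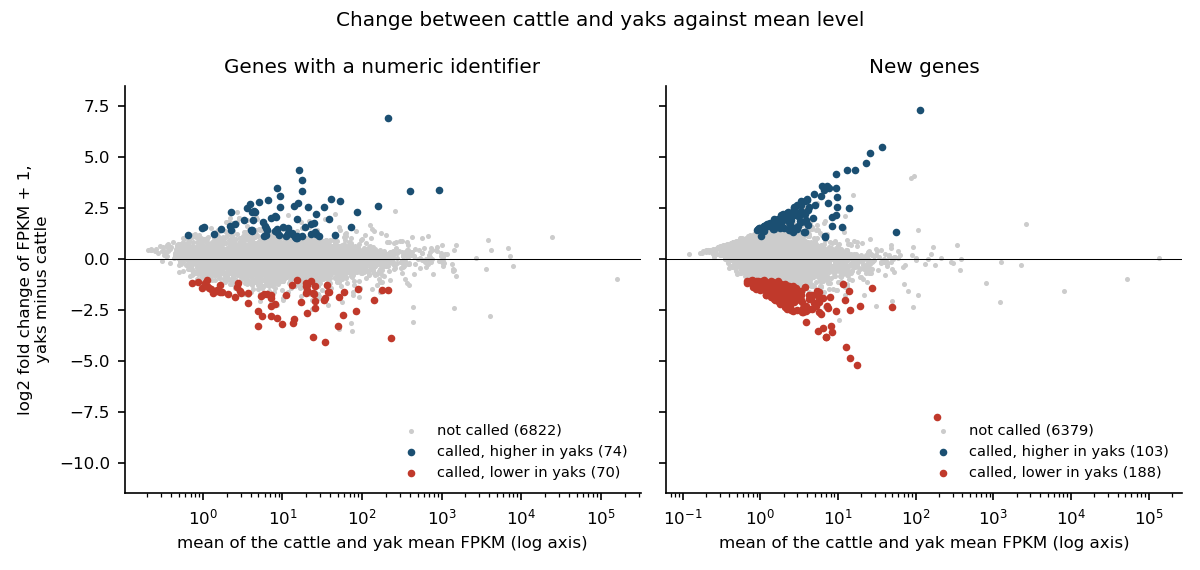
Log2 fold change of FPKM + 1 (yaks minus cattle) against the mean of the cattle mean and the yak mean of FPKM on a log axis, 1 point per gene, for genes with a numeric identifier and for new genes. Called genes are blue where higher and red where lower in yaks, 74 and 70 of the genes with a numeric identifier and 103 and 188 of the new genes.

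Lower genes stayed the majority among new genes in most settings, more so with voom, and higher genes took over in some. With a pseudocount of 0.1 in place of 1, 177 new genes were higher and 81 lower, and with voom 37 were higher and 156 lower. Without T3 replicates 1 and 2, the libraries with the most genes without a read, 182 were higher and 178 lower. Median-ratio scaling between libraries kept more genes lower, with 129 higher and 222 lower, and gave 78 higher and 90 lower among genes with a numeric identifier.

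**Figure D3:**
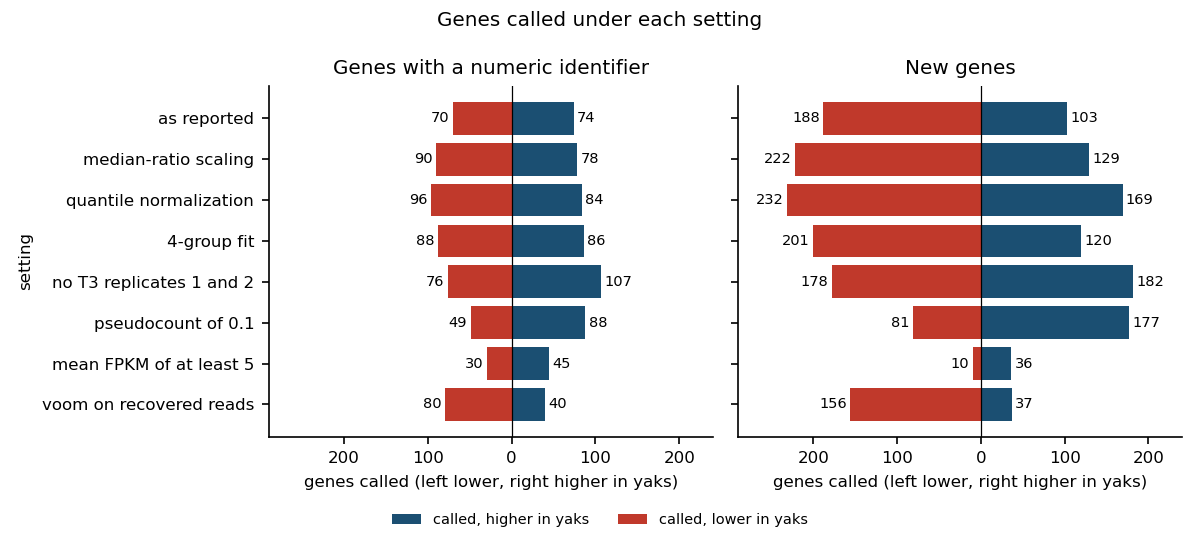
Number of genes called higher (blue, to the right) and lower (red, to the left) in yaks under each of 8 settings, for genes with a numeric identifier and for new genes. As reported, 103 new genes are higher and 188 lower, and with a pseudocount of 0.1 the numbers are 177 and 81. The filter on mean FPKM takes a mean over 9 yaks and 2 cattle. As reported, 213 of 258 genes called lower and 72 of 177 called higher were weakly expressed, at a mean FPKM under 5. Whether the weighting of the mean moved the balance was not tested.

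Some genes were read in all libraries of 1 species and in none of the other. Both cattle and no yak had reads for 57 genes, 47 of them new genes, and the median of the highest read number was 10. All 9 yaks and neither cattle had reads for 67 genes, 53 of them new genes, with a median of 66 reads in the highest library. Since 9 libraries had to hold reads in the second case and 2 in the first, the numbers are not comparable. Only 12 of the 57 reached the level needed for the test, and 57 of the 67 did. Of these, 12 and 29 were called, which the filter nearly fixed for the 12, as they had to reach an FPKM of 1 in both cattle with no read in a yak. A count of 0 allows up to 3 reads in a library.

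The new genes that carry a name changed in 22 of 344 tested cases (6.40%), 5 higher and 17 lower in yaks. All these names are KEGG names given to the assembled transcript. The annotated gene of the same name, where listed, has a number and no name, so each value below belongs to the new gene alone, and how reads of near-identical copies were split is not stated. None of the 98 genes fixed for hypoxia, protein processing, lipid metabolism, glycosaminoglycan degradation, glucuronate metabolism, vascular tone and nucleotide excision repair was listed by name. Of 17 families, 4 had a named row, among them ribosomal proteins with 2 of 20 tested genes lower and none higher, at a median log2 fold change of -0.22. Of the respiratory chain, 2 of 10 were lower and none higher, while the median log2 fold change was 0.13 and an unadjusted p under 0.05 gave 2 higher and 2 lower. Over all new genes tested, 4.36% were called, 1.54% higher and 2.82% lower.

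Both changed genes of the respiratory chain bear names of complex I, the NADH dehydrogenase of mitochondria. NewGene.16543, named NDUFA2 after a small subunit, had an FPKM of 17.3 and 15.2 in the cattle (349 and 297 reads) and 0 to 0.970 in the yaks, at most 19 reads. No yak came near the cattle, and 2 yaks had no read. All yaks stayed under an FPKM of 1, so only the cattle brought this gene into the test. Mean FPKM was 16.3 ± 1.51 (SD, n = 2) in cattle and 33.0-fold lower in yaks, and the gene fell by 3.56 on the log2 scale (standard error 0.31, limma with Benjamini-Hochberg, adjusted p = 1.06e-05). NewGene.9472, named NDUFV2 after a flavoprotein subunit, had 13.8 and 12.2 in the cattle against 0.408 to 2.57 in the yaks, with a median of 1.95. The groups did not overlap, and the log2 fold change was -2.41 (standard error 0.34, limma with Benjamini-Hochberg, adjusted p = 0.000737).

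The ribosomal protein names fell on 2 very different transcripts. NewGene.12622, named RPS30, is 290 bases long and had an FPKM of 20.3 and 29.3 in the cattle against 1.84 to 8.84 in the yaks, with a median of 3.51. It was read in every library, lower in all 9 yaks than in both cattle, and fell by 2.49 on the log2 scale (standard error 0.41, limma with Benjamini-Hochberg, adjusted p = 0.00241). NewGene.15177, named RPL17, is 6158 bases long and had 5.14 and 2.58 in the cattle. In the yaks it reached 1.01 in T2 replicate 1 (238 reads) and at most 36 reads in the other 8, of which T3 replicates 1 and 2 had none. The log2 fold change was -2.04 (standard error 0.30, limma with Benjamini-Hochberg, adjusted p = 0.00105).

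NewGene.5994, named DNAJA1 after a co-chaperone that hands proteins to HSP70, was the most abundant of the named genes that changed. Its FPKM was 80.4 and 84.3 in the cattle and 8.33 to 28.4 in the yaks, with a median of 15.2, so that even the highest yaks, T2 replicate 3 and T3 replicate 2, lay at well under the cattle. The log2 fold change was -2.34 (standard error 0.40, limma with Benjamini-Hochberg, adjusted p = 0.00371). NewGene.8685, whose name HSPA1_8 covers inducible and constitutive HSP70, had 3.03 and 5.87 in the cattle and 0 to 1.78 in the yaks, a log2 fold change of -1.84 (standard error 0.36, limma with Benjamini-Hochberg, adjusted p = 0.00851). NewGene.6161, named PPID after a prolyl isomerase that works with HSP90, had 22.5 and 19.1 in the cattle and 4.46 to 12.2 in the yaks, a log2 fold change of -1.55 (standard error 0.32, limma with Benjamini-Hochberg, adjusted p = 0.0124). HSPA1_8 and PPID fell outside the rule for names and were named after their values were seen. With a pseudocount of 0.1 HSPA1_8 had a log2 fold change of -3.18 and an adjusted p of 0.0768 in limma with Benjamini-Hochberg.

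Further named genes lower in yaks were given the names MED30, RAN and SSR1. NewGene.6164, named MED30 after a subunit of the Mediator complex that links transcription factors to RNA polymerase, had 597 and 747 reads in the cattle and 0 reads in 9 of 9 yaks. With an FPKM of 2.59 and 3.34 in the cattle, its mean was at least 164.7-fold lower in yaks, taking 3 reads in the shallowest yak library as the limit of a count of 0, which covers counting error only. The other rows named MED30 that were tested were not called. NewGene.9178, named RAN after the GTPase of nuclear transport, had 41 and 57 reads in the cattle. In the yaks it had 1 read in T2 replicate 1, 2 reads in T2 replicate 2 and none in the other 7, and its log2 fold change was -2.52 (standard error 0.23, limma with Benjamini-Hochberg, adjusted p = 1.22e-05). It was tested only because both cattle reached an FPKM of 1, so the filter in part set this p-value. NewGene.15276, named SSR1 after a subunit of the complex that assists protein entry into the endoplasmic reticulum, had 79 and 58 reads in the cattle and at most 16 in a yak. It had a log2 fold change of -2.13 (standard error 0.34, limma with Benjamini-Hochberg, adjusted p = 0.00213). With a pseudocount of 0.1 the log2 fold change was -3.86 and the call was lost (limma with Benjamini-Hochberg, adjusted p = 0.0622).

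NewGene.19802, named SIPA1L1 after a protein that switches off the GTPase Rap, had an FPKM of 30.2 and 33.3 in the cattle and 1.93 to 13.4 in the yaks. The yaks of T3 spanned this whole range, from replicate 1 to replicate 3. The log2 fold change was -2.28 (standard error 0.52, limma with Benjamini-Hochberg, adjusted p = 0.0225). Named after their values were seen, NewGene.2604 (EHMT, a histone methyltransferase) had 8.92 and 6.21 in the cattle and 0.628 to 2.91 in the yaks, and NewGene.7203 (HNRNPA1_3, RNA-binding proteins of splicing) had 5.19 and 6.43 in the cattle and 0.971 to 2.23 in the yaks. Both were lower in all 9 yaks than in both cattle, with log2 fold changes of -1.78 (standard error 0.35) and -1.36 (standard error 0.28) and adjusted p of 0.00881 and 0.0137 in limma with Benjamini-Hochberg.

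**Figure D4:**
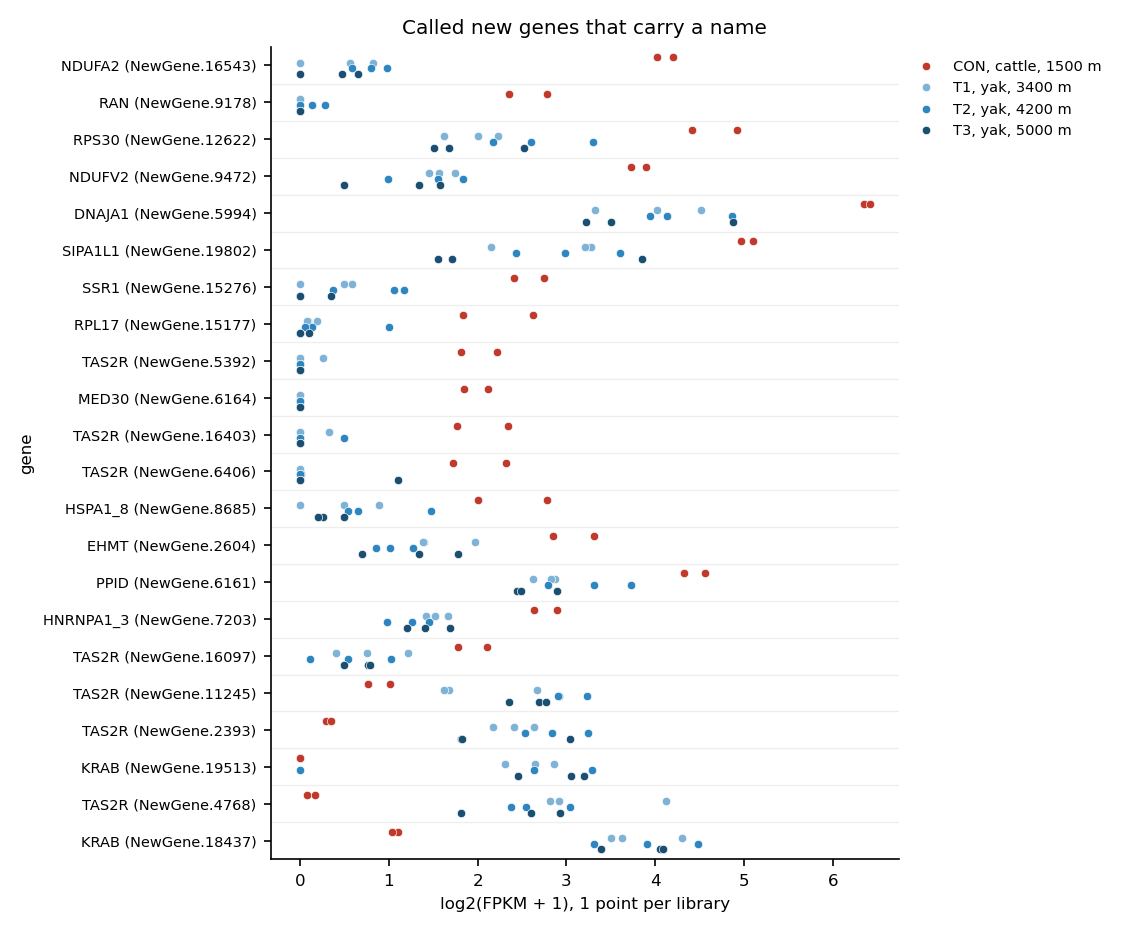
Log2(FPKM + 1) of the 22 called new genes that carry a name, with 1 point per library, coloured by group and sorted by fold change. In the upper 17 genes both cattle lie to the right of all 9 yaks, and in the lower 5 both cattle lie to the left, except that T2 replicate 2 equals the cattle at 0 in NewGene.19513 (KRAB).

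The name given most often was TAS2R, the family of bitter taste receptors, which signal through G proteins in taste cells and in ciliated cells and smooth muscle of the airways. It stood on 130 new genes. Of the 106 tested, 3 were higher and 4 lower in yaks, 6.60% against 4.36% over all new genes tested, and their median log2 fold change was -0.04. Their lengths ran from 211 to 64453 bases with a median of 4927, and 9 of the 106 carried the GO term for reverse transcriptase. Whether any of these transcripts encodes a taste receptor was not tested, so the name is used as a label only. All new genes with this label together held 0.250% and 0.298% of the reads in the cattle and 0.168% to 0.373% in the yaks, so that the cattle lay within the yak range.

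Of those higher in yaks, NewGene.4768 had 8 and 16 reads in the cattle and 235 to 1804 in the yaks. Its FPKM was 0.0620 and 0.128 in the cattle and 2.52 to 16.4 in the yaks, highest in T1 replicate 3, a log2 fold change of 2.67 (standard error 0.43, limma with Benjamini-Hochberg, adjusted p = 0.00212). NewGene.2393 had 0.231 and 0.272 in the cattle and 2.52 to 8.43 in the yaks, a log2 fold change of 2.18 (standard error 0.38, limma with Benjamini-Hochberg, adjusted p = 0.00381). Neither overlapped between the species. NewGene.11245 had 0.704 and 1.02 in the cattle and 2.07 to 8.40 in the yaks, a log2 fold change of 1.65 (standard error 0.40, limma with Benjamini-Hochberg, adjusted p = 0.0344), and its call was lost in 3 of 10 settings and 5 of 11 fits that left out 1 library. In limma with Benjamini-Hochberg its adjusted p was 0.0565 without T3 replicates 1 and 2, 0.0663 with voom and 0.0865 with the replicate number as a block.

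Of those lower in yaks, NewGene.5392 had 30 and 20 reads in the cattle, 2 reads in T1 replicate 2 and none in the other 8 yaks. NewGene.16403 had 22 and 36 reads in the cattle, 2 reads in T1 replicate 3, 4 reads in T2 replicate 3 and none in the other 7. Both genes stayed under an FPKM of 1 in every yak and were tested only through the cattle. Both transcripts are short, at 211 and 235 bases, and their log2 fold changes were -1.99 (standard error 0.22) and -1.96 (standard error 0.25), with adjusted p of 9.52e-05 and 0.000284 in limma with Benjamini-Hochberg. NewGene.6406, of 14419 bases and with the GO term for reverse transcriptase, had 1288 and 2179 reads in the cattle, 665 in T3 replicate 1, 7 in T2 replicate 2 and none in the other 7 yaks. A single yak thus held nearly all yak reads of this gene, whose log2 fold change was -1.90 (standard error 0.31, limma with Benjamini-Hochberg, adjusted p = 0.00257). NewGene.16097, named after its values were seen, had an FPKM of 2.44 and 3.32 in the cattle and 0.0831 to 1.33 in the yaks, a log2 fold change of -1.26 (standard error 0.30, limma with Benjamini-Hochberg, adjusted p = 0.0314), and its adjusted p was 0.138 with a pseudocount of 0.1 and 0.0554 with voom.

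Genes named KRAB, for zinc finger proteins with the repressive KRAB domain, were called in 2 of 9 tested cases, both higher in yaks, where 1.54% of all new genes tested were higher, and 1 of the 2 calls was lost in several settings. NewGene.18437 had an FPKM of 1.15 and 1.06 in the cattle and 8.95 to 21.3 in the yaks, with a median of 14.0. All 9 yaks lay above both cattle, at 193 to 532 reads against 27 and 24. The log2 fold change was 2.77 (standard error 0.32, limma with Benjamini-Hochberg, adjusted p = 0.000113), and it was called in each of 22 fits, which include both fits with a single cattle and leave out the filter on mean FPKM. Of the other named genes, NewGene.16543, NewGene.9178, NewGene.6164, NewGene.5392 and NewGene.16403 missed the filter in both fits with a single cattle, so they were not tested there. They lost their calls in none of the rest. As they stayed under an FPKM of 1 in every yak, the filter in part set these calls, which says little about their stability. NewGene.19513, named after its values were seen, had 0 reads in both cattle and in T2 replicate 2 and 65 to 115 reads in the other 8 yaks. It rose by a log2 fold change of 2.49 (standard error 0.62, limma with Benjamini-Hochberg, adjusted p = 0.0379), and the call was lost in 5 of 10 settings and in 8 of 11 fits that left out 1 library. In limma with Benjamini-Hochberg the adjusted p was 0.0502 with median-ratio scaling, 0.0733 without T3 replicates 1 and 2 and 0.0653 without a filter. In the same test it was 0.0577 with the replicate number as a block and 0.598 with voom.

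The GO term for reverse transcriptase, RNA-directed DNA polymerase activity, was carried by 646 new genes tested. Of these, 21 were higher and 21 lower in yaks, 6.50% in all against 4.36% over all new genes tested, and their median log2 fold change was 0.11. With a pseudocount of 0.1, 40 were higher and 6 lower, and with voom 6 were higher and 18 lower, so the balance followed the setting. All genes with the term held 0.599% and 0.728% of the reads in the cattle and 0.348% to 0.951% in the yaks, so that here too the cattle lay within the yak range.

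Within this set, genes that also carried the term for DNA integration, as a retroviral integrase would, were looked at after the values were seen, and get no test as a set. Of 33 tested, 5 were higher and 4 lower in yaks, 27.3%, beside 5.38% of the 613 genes with reverse transcriptase alone. The median log2 fold change was -0.51 over the 33 and 0.12 over the 613. Their terms also include viral entry and virion assembly in some cases. The reads of all integration genes made up 0.0144% and 0.0154% of the total in cattle and 0.0116% to 0.0240% in yaks. Only T3 replicates 1 and 2, the libraries with the most genes without a read, lay under the cattle, and the other yaks lay above both. These sums include the 5 higher and 4 lower genes, which were chosen by this comparison. Of the higher ones, NewGene.7259 alone had 658 and 757 reads in the cattle and 1179 to 3805 in the yaks. The sums thus do not show how the integration genes that were not called differ.

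The genes with both terms that were higher in yaks had reads in the cattle too, with 1 exception. NewGene.7259, the longest at 3732 bases, had an FPKM of 4.53 and 5.37 in the cattle and 8.81 to 22.6 in the yaks, a log2 fold change of 1.59 (standard error 0.32, limma with Benjamini-Hochberg, adjusted p = 0.0104). NewGene.393 had 1.74 and 2.17 in the cattle and 7.46 to 27.4 in the yaks, a log2 fold change of 2.54 (standard error 0.40, limma with Benjamini-Hochberg, adjusted p = 0.00183). NewGene.17938 had 86 reads in each of the cattle and 279 to 1695 in the yaks, a log2 fold change of 2.51 (standard error 0.47, limma with Benjamini-Hochberg, adjusted p = 0.00639). By FPKM, T2 replicate 1 was the highest yak and T3 replicate 3 the next, both in this gene and in NewGene.4770. NewGene.4770 had 21 and 6 reads in the cattle and 78 to 663 in the yaks, a log2 fold change of 2.68 (standard error 0.50, limma with Benjamini-Hochberg, adjusted p = 0.00668). The exception was NewGene.11892, of 246 bases, with 0 reads in both cattle and 8 to 61 in the yaks. Its mean FPKM of 2.41 ± 1.24 (SD, n = 9) was at least 7.47-fold higher in yaks when 3 reads are allowed in a cattle library. That bound covers counting error only, and not any loss of cattle reads in mapping to a yak assembly. With voom, NewGene.4770 and NewGene.11892 no longer passed, at an adjusted p of 0.0778 and 0.0594 in limma with Benjamini-Hochberg.

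The 4 genes with both terms that were lower in yaks kept reads in every yak. NewGene.10585 had an FPKM of 5.79 and 8.45 in the cattle and 0.278 to 2.12 in the yaks, and NewGene.17523 had 5.01 and 5.33 in the cattle and 0.391 to 2.37 in the yaks. NewGene.15032 had 10.3 and 7.68 in the cattle and 0.980 to 3.99 in the yaks, and NewGene.3349 had 3.93 and 4.32 in the cattle and 0.719 to 1.66 in the yaks. In each of the 4 the highest yak lay under the lower of the cattle. Their log2 fold changes were -1.76 (standard error 0.35), -1.64 (standard error 0.37), -1.63 (standard error 0.36) and -1.31 (standard error 0.28) in this order, with adjusted p of 0.0109, 0.0223, 0.0213 and 0.0170 in limma with Benjamini-Hochberg. With a pseudocount of 0.1, only NewGene.15032 of these 4 still passed.

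**Figure D5:**
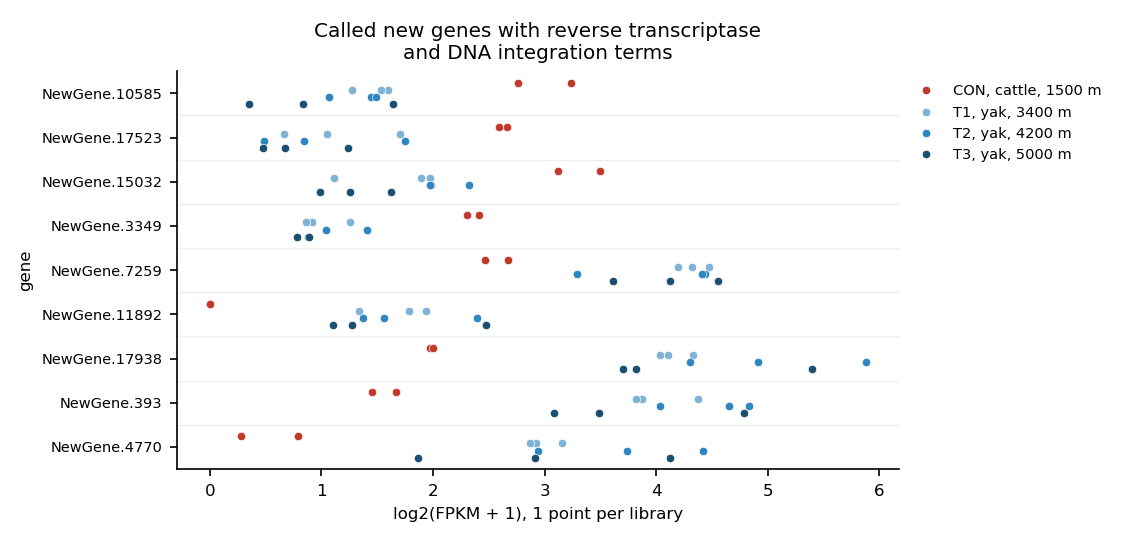
Log2(FPKM + 1) of the 9 called new genes with GO terms for reverse transcriptase and DNA integration, with 1 point per library, coloured by group. In the upper 4 genes both cattle lie to the right of all 9 yaks, and in the lower 5 both lie to the left, where the 2 cattle points of NewGene.11892 coincide at 0.

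The new genes tested with GO terms for a place in the cell, nucleus or cytoplasm, and without that for reverse transcriptase numbered 388. Of them, 25 (6.44%) were called. Of these 25, 21 were lower in yaks, against 188 of 291 over all called new genes. With a pseudocount of 0.1 this became 9 higher and 10 lower, and with voom 18 of the 20 called were lower. New genes without any GO term were called in 3.94% of 5452 cases, 78 higher and 137 lower. Among the 1218 tested that carried any term, 25 were higher and 51 lower, 6.24% in all.

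Altitude among the yaks was compared as well. In the F test of limma over T1, T2 and T3, 0 of the 13636 genes tested passed the Benjamini-Hochberg threshold (smallest adjusted p = 0.107), and 2118 (15.5%) had an unadjusted p under 0.05. Of the 435 genes called, 24 (5.52%) had an unadjusted p under 0.05. The comparison with cattle favours genes with a small spread among the 9 yaks, so this share is in part set by the choice and shows nothing particular to the called genes. The following medians are taken over genes chosen for this difference and describe only how evenly the yaks share it. Taken per yak library, the median difference from the mean of the cattle over the called genes was at least 1.57 on the log2 scale for the higher genes and ran from -1.87 to -1.59 for the lower genes. T3 replicate 2 gave both the smallest median rise and the deepest median fall, and its median over all genes tested was -0.42.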

How the data were processed

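Cattle and yak reads alike were mapped by the authors to BosGru_v2.0, a yak assembly, using HISAT2. StringTie built the transcripts, and FPKM values with gene lengths were deposited for each library. The submitters' processing notes instead list Bowtie2 2.2.8 and TopHat2 2.1.1. The counting tool and the use of strand are not given in the sources used here. FPKM multiplied by length and by a factor per library gave whole reads for 100% of values (tolerance 0.05). None of the numeric identifiers matched the reference table for assembly Bosgru_T2T1.0 (40772 genes), and no sequences were used.

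The fit of 2 cattle against 9 yaks used limma 3.58.1 in R 4.3.3, on log2(FPKM + 1), with variances moderated along their trend on the mean. P-values were adjusted over all 13636 genes and measure the spread between animals. Most of this spread comes from the 9 yaks, pooled over altitudes and places, and it was taken to hold for the 2 cattle too. Single values per library used exact permutation. Scripts in Python 3.11.15 were run with numpy 2.4.6, pandas 2.3.3, scipy 1.17.1 and matplotlib 3.10.9, and the fit was checked on simulated data. Reads per library, 28138973 to 54515645, set the counting precision, and the number of animals sets the rest.

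Named were up to 12 named genes in each direction with the largest changes without overlap, and 2 genes with a numeric identifier in each direction. The genes that the study itself names, which the rule also holds, are not repeated here. Other names are marked as chosen after the values were seen. The 10 most frequent GO terms were counted together, since the files do not give the ontology of a term. Genes, lists and groups were chosen with earlier results of these data known. Alternatives were quantile normalization, median-ratio scaling, a fit of 4 groups, a mean FPKM filter at 5, no filter, a pseudocount of 0.1, library weights, voom, a replicate block, unadjusted p and leaving out each library. Leaving out T3 replicates 1 and 2 together was chosen after seeing the data.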

Additional observations from a re-analysis of the deposited data

Results flagged for a closer look

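Among 45 groups of yak values tested for a single library far from the rest, 8 were flagged because the gap to the next library was larger than Dixon's critical share of the range of the 9 yaks, and chance flags about 1 in 20 groups, a rate that does not hold where most yaks have no read, as in NewGene.9178, NewGene.5392 and NewGene.6406, in which reads in 1 or 2 libraries suffice. T2 replicate 1 stood apart in 3 genes, with an FPKM of 15.0 in 102285405 (highest), 4.17 in 102272269 (lowest) and 1.01 in NewGene.15177 (RPL17, highest). T3 replicate 1 stood apart with 127.58 in 102277106 (lowest) and 1.15 in NewGene.6406 (TAS2R, highest). T2 replicate 2 stood apart with 0.217 in NewGene.9178 (RAN, highest, 2 reads) and with 0 in NewGene.19513 (KRAB, lowest). T1 replicate 2 stood apart with 0.197 in NewGene.5392 (TAS2R, highest, 2 reads).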

How the results depend on the processing

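The direction of every named gene was the same in all settings in which it was tested. Named genes that lost their call with a pseudocount of 0.1 or voom had larger log2 fold changes there than as reported. Against 435 called genes, library weights gave 1147 (244 higher and 193 lower with a numeric identifier, 357 and 353 new genes). An unadjusted p under 0.05 gave 1081 (199 and 186, 319 and 377). A mean FPKM of at least 5, taken over 9 yaks and 2 cattle, gave 121 (45 and 30, 36 and 10). A pseudocount of 0.1 gave 177 higher and 81 lower new genes, and quantile normalization gave 169 higher and 232 lower. Leaving out T3 replicates 1 and 2 gave 182 higher and 178 lower new genes. Voom gave 37 higher and 156 lower new genes, and 40 higher and 80 lower genes with a numeric identifier. The cause was not tested. Of the 435, 408 were also called with median-ratio scaling, 304 with a pseudocount of 0.1 and 289 with voom, and 187 (34 higher and 40 lower with a numeric identifier, 34 and 79 new genes) under all settings with both cattle other than the mean FPKM filter. Leaving out 1 library gave 39 to 582 called genes, with 12 to 110 higher and 9 to 120 lower genes with a numeric identifier and 12 to 147 higher and 6 to 222 lower new genes. Without CON replicate 1, 44 genes were called and without CON replicate 2, 39, and 28 of the 187 were called in both, while without T2 replicate 1 the genes with a numeric identifier that were lower rose to 120. Of 36 called genes followed singly, which include a gene that the study names, 30 could be tested without a given cattle library. The rest then missed the filter, and most of the 30 were no longer called. Genes read in both cattle and no yak numbered 129 with an FPKM of at least 1 taken as read and 58 to 121 without 1 library, and those read in all yaks and neither cattle 125 and 68 to 160. The replicate numbers were taken to pair no animals, since each library came from 1 animal. The correlation of deviations in 15 pairs with the same number ran from -0.102 to 0.362 with 4 over 0.1. These values cannot decide on pairing, as the deviations of 2 cattle mirror each other and the pairs are not independent. The replicate block gave 356 called genes. Depth limits the genes with a count of 0, which allows 3 reads.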
